A study of Drosophila melanogaster and Drosophila simulans and Drosophila yakuba with 27 samples.

Results

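In Drosophila, a CG number is the identifier that the genome project gave to a predicted gene, and a gene still called by it has usually not been studied on its own. The 25 genes described here carried such a number in the deposited expression table. They had a value in every library of D. melanogaster, D. simulans and D. yakuba, had no value in any library of the 5 other species, and reached a signal of at least 10 in at least 1 of the 12 libraries of the first 3 species. They are 25 of the 15439 genes of the table. The threshold of 10 used the same values that are described below, so the levels and their spread are a description without a test. The last genes inside it were CG11313 with a highest value of 10.9, CG13079 with 11.4 and CG4318 with 12.9. The nearest genes outside it were CG32368 with 9.35, CG43293 with 8.81 and CG42680 with 8.35. A missing value says only that the table gives none, for whatever reason, and not that a species lacks the gene.

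The study measured RNA by sequencing in tissues dissected from wandering larvae of the third instar, taken from wild-type lines, and asked how gene expression in the developing eye has changed between species. The 12 libraries used here come from 4 lines reared at 25 °C: D. melanogaster RAL-208, labelled with the genotype DGRP-208, D. melanogaster Canton S, D. simulans Dsim\w[501], which carries an allele of the eye colour gene white, and D. yakuba Dyak\wild-type. Each line gave 1 library from eye-antennal discs, the sacs of epithelium that form the eye, antenna and head capsule, 1 from wing discs, which form the wing and notum, and 1 from brains. The other 15 libraries come from D. virilis, D. mojavensis, D. willistoni, D. pseudoobscura and D. ananassae and hold no value for these genes. No tissue of a line was repeated. In the tissue comparisons the 4 lines are therefore the replicates of a tissue. The level of each line was fitted, so p-values set a tissue difference against its variation from line to line. In the comparison of the D. melanogaster strains the tissues stand in as the replicates of a strain. The level of each tissue was fitted there, so p-values set the strain difference against its variation from tissue to tissue. RAL-208 and Canton S are strains of 1 species, and lines that share ancestry are not independent draws. The sources used here do not state how many larvae were pooled in a library.

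Genes restricted to a few related species are often short, have few introns and are read in few tissues, and many come to notice only through sequencing. Genes at the border between related species are also those for which gene models and the matching of orthologs are least certain. Both points bear on how the values below are read, because a signal depends on the gene model of its species as well as on the RNA.

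The whole set of 143 CG genes with values in these 4 lines only was read at low levels. The median of their highest values was 0.784, 19 of them were at 0 in all 12 libraries, and 25, or 17.5%, reached 10. Of the 5062 CG genes with a value in all 27 libraries, 61.5% reached 10 in the same 12 libraries. The 33 genes with other names and values in the 4 lines only gave 9 genes at 10 or above, or 27.3%.

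Of the 25 genes, 7 have since been renamed. In the current RefSeq and FlyBase names, CG15068 is BomS6, of the Bomanin family of short immune peptides secreted by the fat body. CG13568 is ppk29, of the pickpocket family of sodium channels. CG30343 is Tsen15, a subunit of the endonuclease that removes introns from tRNA. CG42550 is Kmn2, a protein of the kinetochore, which ties chromosomes to the spindle. CG12717 is pira. CG14117 is CR14117 and CG13079 is Tep5Psi, and both are now listed as pseudogenes, the second of the thioester-containing proteins of immune defence. The word uncharacterised therefore no longer holds for all of them. The other 18 genes still have only their number.

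The genes that could be measured on the Ensembl gene models were short. The median coding length was 622.5 nucleotides over the 22 genes with a coding sequence, from 120 in CG15068 to 2043 in CG12717. It was 1243.5 nucleotides in the CG genes valued in all 27 libraries that also reached 10. Of 23 genes with a model, 10 had a single exon, or 43.5%, against 9.55% of that comparison set. CG13560 lies next to CG34105 and CG43124 next to CG43125, which are also CG genes with values in the 4 lines only. CG15068 lies next to BomS5, a gene of its own family, and CG1701 next to so, the homeobox gene sine oculis of the eye field.

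Levels are the deposited signal, which is a read count divided by 1 constant per gene and 1 factor per library. Within D. melanogaster the constant followed exonic length, with a Pearson correlation of 0.978 between the logarithms across 10480 genes, which are not independent replicates. In that species signal is therefore close to a level per length, and levels of different genes can be set beside each other. The same was not shown for D. simulans and D. yakuba. A read of CG30343 counted there for 4.14 and 4.41 times as much signal as in D. melanogaster, relative to the median gene. For CG13560 in D. simulans it was 0.42 times. The 12 libraries held 4085962 to 20473119 counted reads, with a median of 12066504. Disc marker sums were highest in the labelled disc: the summed signal of 8 eye-antennal disc markers was 579 to 827 in the eye-antennal disc, 25.5 to 73.1 in the wing disc and 155 to 274 in the brain, and that of 6 wing disc markers was 525 to 830 in the wing disc, 95.9 to 149 in the eye-antennal disc and 141 to 205 in the brain. The summed signal of 6 brain neuron markers was 502 to 690 in the brain and 268 to 437 in the discs. Of these 6, Syb was lower in the brain than in both discs of each line, at 141 in the brain and 272 and 308 in the discs of RAL-208, and brp was higher in the eye-antennal disc than in the brain of D. simulans. Syb made up most of the sum in every disc library. In RAL-208 it gave 272 of 434 in the eye-antennal disc and 308 of 326 in the wing disc.

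Markers of other larval organs were also present and uneven. The 6 fat body markers, storage and fat body proteins led by the Lsp genes, summed to 75.9 to 11006 in eye-antennal disc libraries, 503 to 13471 in wing disc libraries and 726 to 3027 in brain libraries. The 5 hemocyte markers with values summed to 80.1 to 196, 10.1 to 31.1 and 39.2 to 180. These sums are given again beside some of the genes below. In libraries from whole tissue, fewer cells of a type and less RNA per cell cannot be told apart.

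The 25 genes differed more between lines than between tissues. The median share of the variance of log2(signal + 1) was 65.4% between lines and 3.86% between tissues, each median taken on its own. Lines took more than tissues in 21 of the 25. Over all 8481 genes that could be tested, these medians were 49.2% and 26.96%, and lines took more in 59.7%. A difference between species also holds differences in the gene model, so it is not a measure of RNA alone. The highest library of a gene was from D. yakuba for 8 genes, from D. simulans for 7, from RAL-208 for 6 and from Canton S for 4. By tissue, it was a wing disc library for 13 genes, an eye-antennal disc library for 7 and a brain library for 5. These counts use the highest values that the signal threshold selected on, so they are a description without a test. The same counts over all genes are not given. Within a line, the brain was highest for 40.1% of all genes tested in D. simulans to 45.0% in RAL-208. For the wing disc this share was 29.4% in D. yakuba to 35.0% in Canton S. For the eye-antennal disc it was 22.6% in RAL-208 to 28.3% in D. simulans.

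The genes are described in 3 groups, drawn up after the values had been seen. A first group of 8 genes had a signal of at least 1 in all 12 libraries. Of the others, 8 had more than 75% of their variance between lines, and the remaining 9 met neither condition. Between lines these 9 had from 1.99% of their variance, in CG11313, to 63.8%, in CG17108.

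**Figure D1:**
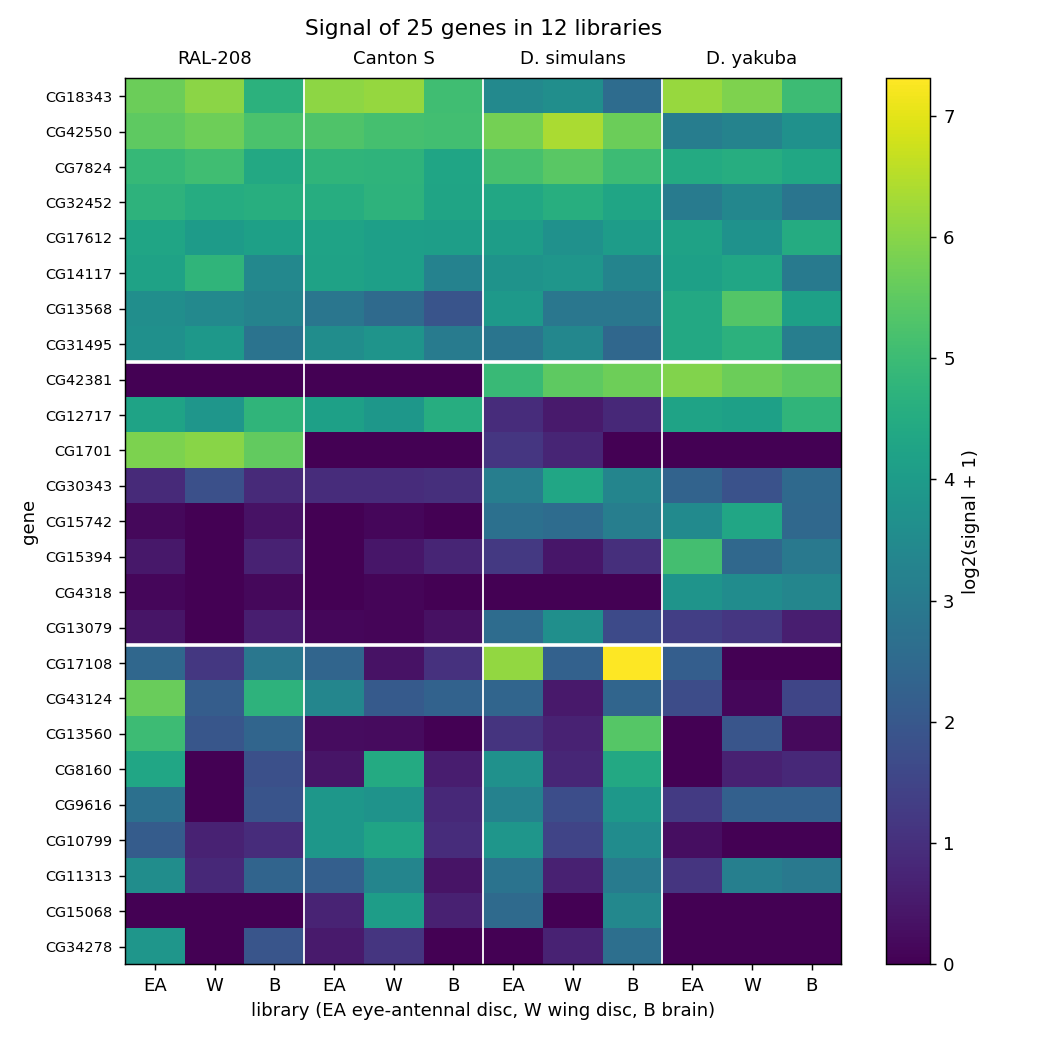
Signal of the 25 genes, as log2(signal + 1) in colour, with genes in rows and the 12 libraries in columns, grouped by line; white lines part the 3 groups. The upper 8 genes have a signal of at least 1 in every library, the middle 8 have more than 75% of their variance between lines, and the lower 9 are the rest, with CG17108 highest of all at 157 in the D. simulans brain.

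**Figure D2:**
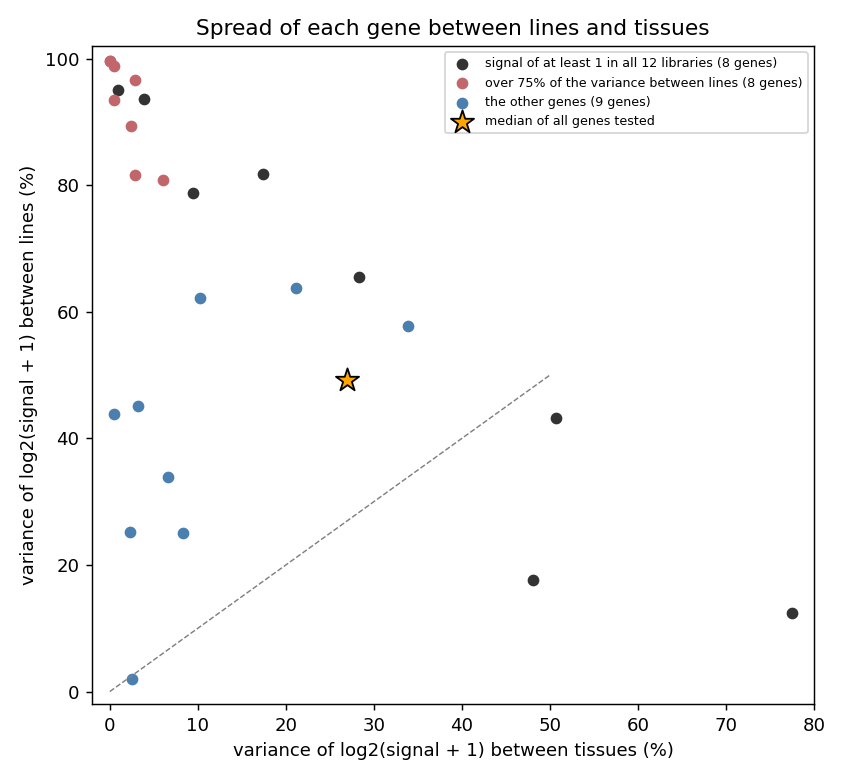
Share of the variance of log2(signal + 1) between the 3 tissues (horizontal, in %) and between the 4 lines (vertical, in %), 1 point per gene, coloured by group; the star is the median of all genes tested and the dashed line marks equal shares. Most points lie above the dashed line, and CG14117 is farthest to the right. Over the 25 genes the median share was 3.86% between tissues and 65.4% between lines, each median taken on its own.

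The 8 genes read in every library included the 4 that were higher in discs than in the brain. Values by tissue are given in the order RAL-208, Canton S, D. simulans, D. yakuba. CG18343 had a signal of 49.5, 65.4, 9.76 and 71.3 in the eye-antennal disc. It had 64.4, 70.6, 11.2 and 58.5 in the wing disc and 25.0, 32.7, 5.01 and 31.2 in the brain. The brain was lowest in each line, while the D. simulans libraries were lowest in each tissue, at 14 to 21 reads. Across lines the tissues overlapped, and within a line the discs and the brain did not.

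CG31495 showed the same order in each line. Its signal was 11.8, 10.9, 6.21 and 20.3 in the eye-antennal disc, 13.8, 12.7, 9.39 and 25.0 in the wing disc and 5.92, 7.23, 4.42 and 7.76 in the brain. The wing disc was highest and the brain lowest in all 4 lines, with the widest range in D. yakuba. CG14117, now listed as a pseudogene, had 17.6, 17.6, 12.6 and 17.0 in the eye-antennal disc, 26.4, 16.6, 13.3 and 19.2 in the wing disc and 9.73, 8.48, 8.76 and 6.87 in the brain. All 8 disc libraries were above all 4 brain libraries. Tissues took 77.5% of its variance, the highest share of the 25 genes.

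CG7824 had 28.6, 26.5, 35.4 and 20.9 in the eye-antennal disc, 32.6, 26.2, 42.2 and 22.3 in the wing disc and 20.1, 18.7, 31.0 and 19.4 in the brain. The brain was lowest in each line, and the tissues overlapped across lines. CG7824 and CG17612 were the only genes of the 25 with a signal of at least 10 in all 12 libraries.

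CG17612 was the most even of the 25, with an SD of 0.23 on the log2 scale over 12 libraries. Its signal was 15.8 to 18.6 in the eye-antennal disc, 11.96 to 16.3 in the wing disc and 15.6 to 21.6 in the brain. CG32452 was lower in D. yakuba, at 6.21 to 9.40, than in the other 3 lines, at 18.2 to 25.5. CG42550, the kinetochore gene Kmn2, had 7.55 to 11.8 in D. yakuba, on 27 to 48 reads, and 33.1 to 81.9 in the other lines. In both genes the D. yakuba libraries lay below all others, and the tissues overlapped.

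CG13568, the channel gene ppk29, had 11.3, 6.26, 14.3 and 20.4 in the eye-antennal disc, 9.78, 4.74, 6.38 and 39.8 in the wing disc and 8.67, 2.74, 6.44 and 16.9 in the brain. D. yakuba was highest in each tissue. A read of this gene counted for 3.62 times as much signal in D. yakuba as in D. melanogaster, relative to the median gene. Not adjusted for depth, the reads themselves were 83 to 212 in D. yakuba and 46 to 196 in RAL-208. The part of this constant in the order of the lines was not tested.

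Between eye-antennal disc and brain, 4 of the 23 genes that passed the filter on low values were called, all higher in the disc, where 39.0% of the 8481 genes tested were called and 18.8% were higher in the disc. The filter required 4 or more libraries with a signal of 1 or more, which CG15068 and CG4318 did not meet. The genes were called with limma on log2(signal + 1) with line as a block, at a Benjamini-Hochberg adjusted p under 0.05 over all genes tested. CG18343 exceeded its brain level by 1.98-fold (log2 0.99, SE 0.10, limma adjusted p = 0.000164, 4 of 4 lines). CG14117 was 1.81-fold higher (0.86, SE 0.16, limma adjusted p = 0.00267, 4 of 4 lines) and CG31495 1.71-fold higher (0.78, SE 0.17, limma adjusted p = 0.00517, 4 of 4 lines). CG7824 was 1.24-fold higher (0.32, SE 0.10, limma adjusted p = 0.0300, 4 of 4 lines), and this call was lost without RAL-208, without Canton S or without D. simulans, at adjusted p = 0.119, 0.183 and 0.0561. In edgeR on the 6 D. melanogaster libraries alone, CG18343 was still called, while the adjusted p was 0.0965 for CG31495, 0.0809 for CG14117 and 0.0821 for CG7824. Without line as a block, CG14117 alone was called. The folds are on the scale of signal plus 1 and understate the change of low genes. The median log2 difference was 0.32 over the 23 genes and 0.0064 over all genes tested.

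Between wing disc and brain, 6 of the 23 genes were called, where 51.6% of all genes tested were called. Of these 6, 4 were higher in the wing disc, where 23.4% of all genes were, and 2 were lower, where 28.2% were. The same 4 genes as in the eye-antennal disc were higher: CG31495 by 2.12-fold (log2 1.08, SE 0.17, limma adjusted p = 0.000497), CG18343 by 2.12-fold (1.08, SE 0.10, adjusted p = 3.14e-05), CG14117 by 2.05-fold (1.04, SE 0.16, adjusted p = 0.000568) and CG7824 by 1.36-fold (0.44, SE 0.10, adjusted p = 0.00448), each in 4 of 4 lines. Without line as a block, the calls of CG31495 and CG14117 held and those of CG18343 and CG7824 were lost, at limma adjusted p = 0.384 and 0.211. The comparisons with the brain share its 4 libraries. Among all genes tested, 1981 were higher in the wing disc and 2393 in the brain. With the median of every library set equal, these counts became 2579 and 1980, and the median difference of all genes moved from -0.05 to 0.07.

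CG12717, or pira, was higher in the brain than in the wing disc. Its signal was 26.8, 22.3 and 26.6 in the brains of RAL-208, Canton S and D. yakuba, 18.0, 16.7 and 17.9 in their eye-antennal discs and 13.3, 13.6 and 16.8 in their wing discs. In D. simulans it was 0.792 in the brain, 0.900 in the eye-antennal disc and 0.441 in the wing disc, on 16, 10 and 6 reads. The brain was highest in 3 lines, and the wing disc was lowest in all 4. The brain exceeded the wing disc by 1.56-fold (log2 difference of wing disc minus brain -0.64, SE 0.14, limma adjusted p = 0.00486, 4 of 4 lines). This call was lost without line as a block, at limma adjusted p = 0.789. Eye-antennal disc against brain was not called (log2 -0.35, SE 0.14, limma adjusted p = 0.0854).

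CG43124 was the only gene of the 25 called between the discs, where 16.5% of all genes tested were called. In the eye-antennal disc its signal in the 4 lines was 49.1, 9.30, 4.25 and 2.25. It had 3.43, 3.17, 0.409 and 0.0959 in the wing disc and 25.6, 3.88, 4.27 and 1.88 in the brain. The wing disc was lowest in each line, RAL-208 was highest in each tissue, and the tissues overlapped across lines. The eye-antennal disc exceeded the wing disc by 4.19-fold (log2 2.07, SE 0.38, limma adjusted p = 0.00617, 4 of 4 lines), and the brain exceeded the wing disc (log2 difference of wing disc minus brain -1.53, SE 0.38, limma adjusted p = 0.00835, 4 of 4 lines). Without line as a block both calls were lost, at limma adjusted p = 0.283 and 0.268, and with a pseudocount of 5 the second was, at 0.0692. Eye-antennal disc and brain did not differ at the threshold (log2 0.54, SE 0.38, limma adjusted p = 0.303).

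In D. simulans and D. yakuba the values of CG43124 were identical to those of its neighbour CG43125 and of CG42694, because the table gives these 3 genes the same row of counts there. The values of CG43124 itself are therefore those of D. melanogaster, and with edgeR on the 6 D. melanogaster libraries alone neither difference was called, at adjusted p = 0.122 and 0.207. The sums of the hemocyte markers for the 4 lines were 196, 104, 115.2 and 80.1 in the eye-antennal disc, 22.4, 31.1, 23.4 and 10.1 in the wing disc and 180, 81.9, 103 and 39.2 in the brain. The wing disc had the lowest hemocyte sum in each line, as it had the lowest CG43124. The tissue with the highest sum was the highest for CG43124 in 3 of 4 lines. It was so in 3 or more lines for 12.8% of the 8235 genes tested with signal in each line. Ring gland, glia, neuroblast and brain neuron sums were also lowest in the wing disc of each line, with ring gland sums of 8.58 to 17.8 in the wing disc and 255 to 613 in the eye-antennal disc. Of 8235 genes tested with signal in each line, 19.7% were lowest in the wing disc in all 4 lines. Genes closest to CG43124 over the 12 libraries, after line means were subtracted, were nimB4 (Pearson r = 0.973), CG43125 (0.973) and srp (0.971). The gene srp is itself 1 of the 5 hemocyte markers, and the r of CG43125 rests in part on the 6 identical values. The part of these cell types in the difference was not tested.

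**Figure D3:**
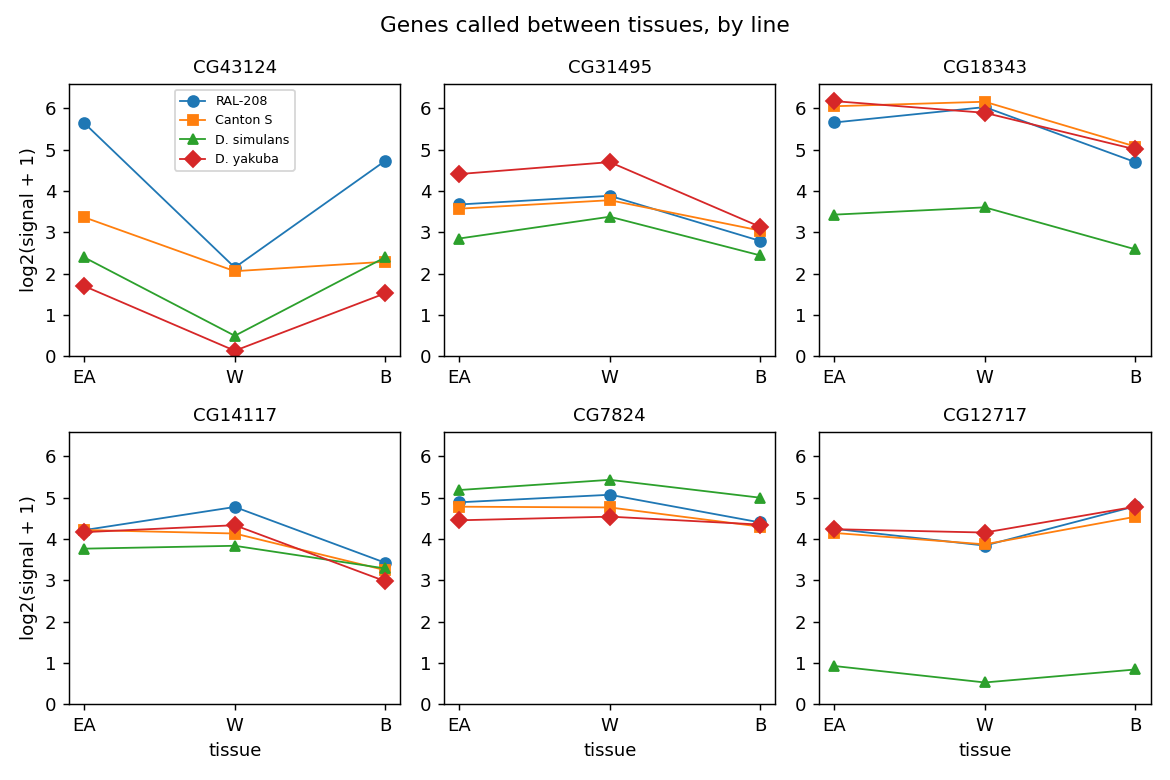
Level of the 6 genes called between tissues, as log2(signal + 1), in eye-antennal disc (EA), wing disc (W) and brain (B), with 1 marker and line for each of the 4 fly lines. CG31495, CG18343, CG14117 and CG7824 fall from the discs to the brain in each line, CG12717 is highest in the brain in 3 lines and under 1 signal unit in D. simulans, and CG43124 is lowest in the wing disc in each line.

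Genes nearest to the other leading patterns were named by the same measure. For CG31495 they were CG1518 (Pearson r = 0.991), CG3817 (0.990) and Ef1gamma (0.989), a subunit of a translation elongation factor. For CG12717 they were mim (0.991), Sbf (0.987) and eIF4G2 (0.985). These are the highest of 8480 correlations in each case, over 12 libraries that share their depth and dissection.

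Between eye-antennal disc and wing disc, 1077 genes of the whole table were higher in the eye-antennal disc and 319 in the wing disc. With library medians set equal these were 930 and 687, and the median difference moved from 0.06 to -0.04. CG43124 was called under both scalings. CG17108 came next among the 25, with a log2 difference of 2.33 (SE 0.71) that missed the threshold at a limma adjusted p of 0.0566.

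The second group, with more than 75% of the variance between lines, held CG12717 and 7 further genes. CG1701 was read mainly in RAL-208. It had a signal of 57.7 in the eye-antennal disc, 64.0 in the wing disc and 45.8 in the brain of this line, on 433, 162 and 557 reads. Canton S had 0 reads of it in each tissue. D. simulans had 3, 2 and 0 reads, and D. yakuba was at 0. Against the signal that 3 reads would give in a Canton S library, the RAL-208 eye-antennal disc was at least 149-fold higher, its wing disc at least 184-fold higher and its brain at least 132-fold higher. These bounds cover counting error only.

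CG42381 was read in D. simulans and D. yakuba. It had 0 reads in all 6 D. melanogaster libraries, 70 to 216 reads in D. simulans, for a signal of 29.97 to 50.8, and 277 to 345 reads in D. yakuba, for a signal of 43.2 to 59.3. In the current D. melanogaster gene models its exons lie wholly inside exons of PIG-M, CG42379 and CG42380 on the same strand, and those 3 genes also had 0 reads in all 6 libraries. PIG-M codes for a mannosyltransferase of the GPI anchor pathway. Of 317 D. melanogaster genes whose exons lie wholly inside exons of other genes on the same strand, 81.4% had 0 reads in all 6 libraries, against 12.2% of the other 14448 genes. The line difference of CG42381 and this overlap cannot be told apart here.

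CG4318, CG15742, CG15394 and CG13079 were also under a signal of 1 in all 6 D. melanogaster libraries. CG4318 was read in D. yakuba, at 12.9, 10.8 and 9.24 in eye-antennal disc, wing disc and brain on 107, 111 and 87 reads. The other 9 libraries held at most 2 reads of it. CG15394 had 33.6, 4.59 and 6.77 in D. yakuba and 1.34, 0.364 and 0.980 in D. simulans, so its highest value was a single eye-antennal disc library. CG15742 had 10.3, 19.0 and 4.59 in D. yakuba and 5.46, 5.04 and 7.73 in D. simulans, with D. yakuba highest in the discs and D. simulans in the brain. Its D. melanogaster libraries held at most 4 reads. CG13079, the pseudogene Tep5Psi, had 5.05, 11.4 and 2.11 in D. simulans on 25, 69 and 19 reads, and 1.56, 1.21 and 0.526 in D. yakuba on 42, 40 and 16 reads. A read of it counted for 2.47 times as much signal in D. simulans as in D. melanogaster, relative to the median gene.

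CG30343, or Tsen15, had a signal of 0.816 to 2.42 in D. melanogaster, 7.77 to 19.0 in D. simulans and 2.60 to 4.60 in D. yakuba. Read numbers, not adjusted for depth, were 8 to 13 in D. melanogaster, 8 to 24 in D. simulans and 8 to 13 in D. yakuba. The libraries held 4114414 to 20473119 counted reads in D. melanogaster, 4085962 to 7059872 in D. simulans and 11644450 to 14308891 in D. yakuba. A read of this gene counted for 4.14 times as much signal in D. simulans and 4.41 times as much in D. yakuba as in D. melanogaster, relative to the median gene. In D. melanogaster 76.6% of its exonic length is also exonic in Pkn, a kinase gene on the opposite strand, and the sources used here do not state whether reads were counted by strand. Its place at or above 10 rests on a single D. simulans library, the wing disc.

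The third group held the 9 genes outside both rules. Within it, some tissue differences had 1 sign in all 4 lines: CG43124 for the wing disc below each of the other tissues, CG17108 for eye-antennal disc over wing disc and CG10799 for eye-antennal disc over brain. The other 6 genes had no tissue difference with 1 sign in all 4 lines. In RAL-208 the eye-antennal disc was highest for 7 of the 8 genes read in that line, where it was highest for 22.6% of all genes tested. In Canton S the wing disc was highest for 5 of 9 and the eye-antennal disc for 4 of 9, against 35.0% and 22.9% of all genes. In D. simulans the brain was highest for 8 of 9, against 40.1% of all genes. In D. yakuba, the eye-antennal disc was highest for 3 of 7, the wing disc for 3 and the brain for 1. The shares of all genes there were 28.2%, 29.4% and 42.4%. The group was drawn up after the values had been seen, so these counts are a description without a test. Genes in it also met the threshold of 10 through these libraries. CG11313, CG34278 and CG43124 reached it in RAL-208 only, CG15068 in Canton S only and CG17108 in D. simulans only.

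CG8160 was highest in a different tissue in each of 3 lines. It had 19.0 in the eye-antennal disc of RAL-208, 20.9 in the wing disc of Canton S and 20.4 in the brain of D. simulans, on 161, 204 and 126 reads. In RAL-208 it was at 0 in the wing disc, and in Canton S it was at 0.343 in the eye-antennal disc. Besides 12.1 in the D. simulans eye-antennal disc and 2.47 in the RAL-208 brain, its other 7 libraries were under 1. CG13560 had 31.0 in the eye-antennal disc of RAL-208 and 40.8 in the brain of D. simulans, and 4.24 or less in the other 10 libraries. CG34278 had 13.3 in the eye-antennal disc of RAL-208, on 29 reads, and 5.35 in the brain of D. simulans as its next value.

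CG17108 was at its highest in D. simulans, with 69.0 in the eye-antennal disc, 3.84 in the wing disc and 157 in the brain, on 352, 24 and 1461 reads. In the other lines it was at 6.52 or less, and the wing disc was the lowest or shared the lowest place in each line. The D. simulans brain was also the library with the highest salivary gland and muscle sums, at 3785 and 852, where the other brains had 23.7 to 177 and 22.0 to 205. Their part in this value was not tested.

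CG10799 had 13.6 and 18.4 in the eye-antennal and wing discs of Canton S, 13.4 and 10.8 in the eye-antennal disc and brain of D. simulans, and 3.34 or less in the other 8 libraries. CG15068, the immune peptide gene BomS6, had 15.8 in the wing disc of Canton S, on 27 reads, 9.60 in the brain of D. simulans, on 11 reads, and 4.76 in the D. simulans eye-antennal disc, on 3 reads. It was at 0.650 or less in the other 9 libraries. CG9616 had its highest values in the brain of D. simulans, at 13.9, and in the discs of Canton S, at 13.6 and 12.4. CG11313 had 10.9 in the eye-antennal disc of RAL-208, 9.04 in the wing disc of Canton S, 7.30 in the brain of D. simulans and 7.93 in the wing disc of D. yakuba, and no tissue was its highest in more than 2 lines.

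Fat body marker sums for the 4 lines were 6111, 11006, 3388 and 75.9 in the eye-antennal disc, 503, 13471, 538 and 979 in the wing disc and 2713, 1203, 3027 and 726 in the brain. The tissue with the highest sum was also the highest for CG10799 and CG11313 in 3 of 4 lines, for CG8160, CG13560 and CG9616 in 2 of 4, for CG34278 in 2 of the 3 lines with signal, for CG15068 in 1 of 2, for CG43124 in 1 of 4 and for CG17108 in none of 4. Among the other members, CG13568 and CG32452 matched in 3 of 4 lines, and of 8235 genes tested with signal in each line, 9.11% matched in 3 or more lines and 38.6% in 2 or more. The hemocyte sum matched CG10799 in 3 of 4 lines as well, as it did CG43124, CG17612 and CG13568. Of the 8235 genes, 12.8% matched the hemocyte sum in 3 or more lines. The fat body sum was 2713 in the RAL-208 brain and 3027 in the D. simulans brain. Values in the RAL-208 brain were 0.902 for CG10799, 0 for CG15068, 2.47 for CG8160 and 2.70 for CG9616. In the same library they were 6.52 for CG17108, 4.24 for CG13560, 4.12 for CG11313, 2.83 for CG34278 and 25.6 for CG43124. The D. simulans sums of eye-antennal disc and brain were close to each other. The part of fat body in these values was not tested. None of these genes but CG43124 was called in a tissue comparison.

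**Figure D4:**
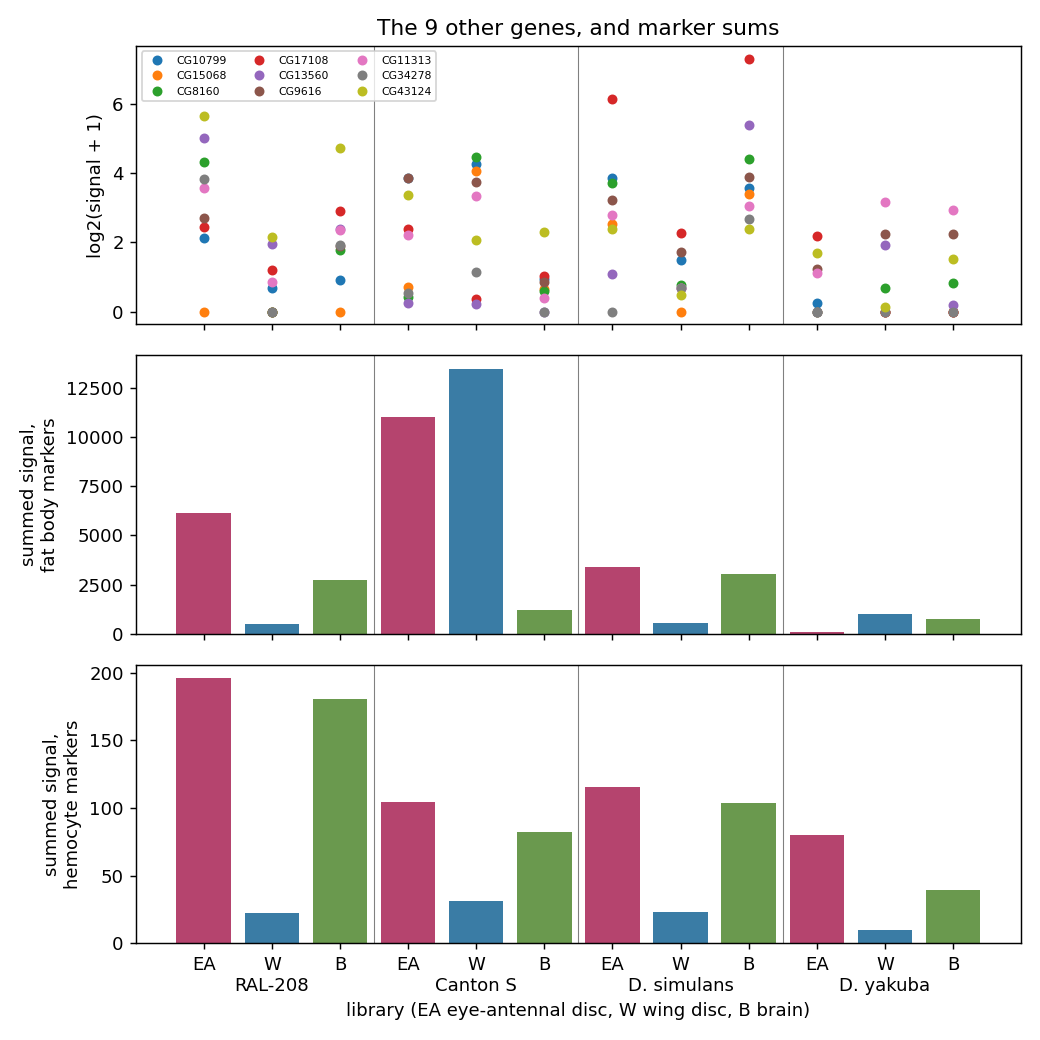
Top, log2(signal + 1) of the 9 genes outside the first 2 groups, in the 12 libraries; middle and bottom, the summed signal of the fat body and hemocyte markers in the same libraries, coloured by tissue. The eye-antennal disc of RAL-208 is highest for 7 of 8 genes with signal there and has the highest fat body sum of that line, 6111, while in D. simulans the brain is highest for 8 of 9 and its sum, 3027, is below the 3388 of the eye-antennal disc.

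Whether a difference between tissues itself differed between species was tested as an interaction of tissue with D. melanogaster against D. simulans and D. yakuba together, in 4 lines with 4 residual degrees of freedom. With limma, 0 of the 23 genes were called for eye-antennal disc against wing disc, 0 for eye-antennal disc against brain and 0 for wing disc against brain. Over all genes, 0.0118%, 0% and 0% were called. At an unadjusted limma p under 0.05 the numbers were 413, 430 and 724 of all 8481 genes tested, and 0, 0 and 1 of the 23. The last was CG13079, whose wing disc minus brain difference differed by -1.69 on the log2 scale in D. melanogaster against the other species (SE 0.58, limma adjusted p = 0.487).

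Between the D. melanogaster strains, edgeR on read counts with tissue as a block called 0 of the 17 genes tested. Of all 9476 genes, 0.295% were called. At an unadjusted edgeR p under 0.05 there were 4 of the 17 genes and 1577 of the 9476. DESeq2 called 2 of the 17, CG1701 and CG13560, and 504 of the 9476. For CG1701, with 162 to 557 reads in RAL-208 and none in Canton S, the edgeR adjusted p was 0.0581 and that of DESeq2 was 4.43e-17. For CG13560, with 158, 5 and 35 reads in the eye-antennal disc, wing disc and brain of RAL-208 and 1, 1 and 0 in Canton S, they were 0.121 and 5.75e-05. The others with an unadjusted p under 0.05 were CG13568 (log2 of RAL-208 over Canton S 1.14, SE 0.28, edgeR adjusted p = 0.210) and CG43124 (1.88, SE 0.58, edgeR adjusted p = 0.250). All 4 were higher in RAL-208. The tissues stand in as the replicates of a strain here, and the fit has 2 residual degrees of freedom.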

How the data were processed

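The authors extracted total RNA with the RNAqueous micro kit and made TruSeq libraries, per the labels' protocols, and used TopHat2 2.0 and HTSeq, per the submitters' processing notes. The sources used here name no genome build, HTSeq setting or strand handling, so no positions are printed. The deposited read counts per gene are raw counts under each species' own identifiers. The deposited normalised table is a signal under D. melanogaster symbols. Its values were paired with count rows by their shares over the libraries of a species (tolerance 1e-06): 100% of genes above 0 had a matching row in D. melanogaster, 98.0% in D. simulans and 98.6% in D. yakuba. Read numbers were known in all 12 libraries for 19 of the 25 genes. Of 10745 genes that could be paired both by name and by value, 10740 agreed. Of the 25 genes, 23 agreed. Among these, the row of CG4318 was picked by name from several matching rows. That of CG42381, at 0 throughout D. melanogaster, was taken by name alone. The agreement of CG4318 and CG42381 was therefore fixed in advance. CG13079 and CG42550, whose current identifiers are not among the count rows, were paired by value alone. Columns headed by D. melanogaster alone were assigned to RAL-208, whose counts their values match.

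For the tissue comparisons, limma 3.58.1 (R 4.3.3) was fitted to log2(signal + 1), with a trend, line as a block and a filter (at least 1 in at least 4 of 12 libraries), which left 8481 genes and 6 residual degrees of freedom. Libraries of a line deviated together (correlations 0.592 to 0.819 over 12 pairs). Strains were compared with edgeR 4.0.16 (quasi-likelihood, 2 or more libraries with a CPM of 1 or more), and DESeq2 1.42.0 was an alternative. P-values were adjusted by Benjamini-Hochberg over all genes tested. The edgeR SE is the log2 difference over the square root of F. The fits were tested on simulated data. Named genes follow a rule: called genes with 1 sign in all 4 lines, the 10 highest means and the 3 genes on each side of the threshold, and the other members were described as well, after their values were seen. The members and the lists were chosen with earlier results of these data known. Names and neighbours come from RefSeq and Ensembl gene models of BDGP6.54. Gene models were found for 23 genes. Among the marker lists, ring gland sums were 255 to 613 in eye-antennal disc, 8.58 to 17.8 in wing disc and 122 to 511 in brain libraries, glia 70.3 to 113, 13.2 to 41.9 and 398 to 582, neuroblasts 42.2 to 122, 27.6 to 34.5 and 229 to 521, trachea and cuticle 454 to 676, 228 to 599 and 69.7 to 191, and testis and germ line 11.8 to 37.4, 9.33 to 30.8 and 10.2 to 35.1.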

Additional observations from a re-analysis of the deposited data

Results flagged for a closer look

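In each tissue, the 4 lines of every gene were searched for a library far from the other 3, by the gap to its nearest neighbour over the range (Dixon's ratio above its 95% critical value). This critical value flags about 1 in 20 groups of 4 independent values from a normal distribution. The signals were used without a log scale, and lines that share ancestry are not independent. The rate expected by chance in these data is therefore not known. Of 75 groups, 30 had such a library, in 16 of the 25 genes, and it was the highest in 28 and the lowest in 2. The threshold of 10 in any library favours genes with a high library, and no share over all genes is given for comparison. The number of groups with such a library is therefore a description without a test. No interaction of tissue and species was called.

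In RAL-208 the high libraries were those of CG1701 (57.7 in the eye-antennal disc, 64.0 in the wing disc, 45.8 in the brain), CG43124 (49.1 in the eye-antennal disc, 25.6 in the brain), CG13560 (31.0 in the eye-antennal disc) and CG34278 (13.3 in the eye-antennal disc). In Canton S they were all from the wing disc, for CG8160 (20.9), CG10799 (18.4) and CG15068 (15.8). That library also had the highest fat body sum of the 12, 13471, whose part in these values was not tested.

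In D. simulans the brain was high for CG17108 (157), CG13560 (40.8), CG7824 (31.0), CG8160 (20.4), CG10799 (10.8), CG15068 (9.60) and CG13079 (2.11). Its eye-antennal disc was high for CG17108 (69.0) and CG15068 (4.76), and its wing disc for CG30343 (19.0) and CG13079 (11.4). Its eye-antennal disc was low for CG14117 (12.6) and CG12717 (0.900). In D. yakuba the high libraries were those of CG4318 (12.9, 10.8 and 9.24 in eye-antennal disc, wing disc and brain), CG15394 (33.6, 4.59 and 6.77 in the same order) and CG13568 (39.8 in the wing disc).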

How the results depend on the processing

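The numbers of the 25 genes called in eye-antennal disc against wing disc, eye-antennal disc against brain and wing disc against brain were 1, 4 and 6. Without the pairing by line (no replicate block) they were 0, 1 and 2. With both D. melanogaster strains as 1 line they were 1, 3 and 6. With edgeR on the D. melanogaster counts alone, the first 2 were 0 and 1. For the first, a mean of at least 10, which removes CG43124, gave 0, and a pseudocount of 0.5 gave 2. Leaving out 1 line gave 1 to 1, 3 to 5 and 6 to 8. Fits on recovered counts gave 1, 5 and 7 with edgeR and 1, 4 and 7 with DESeq2. Over all genes, eye-antennal disc against wing disc gave 1396 calls, 731 without RAL-208, 716 without Canton S and 843 with both strains as 1 line. For CG17108, eye-antennal disc against brain changed from a log2 of 0.48 (not called) to -0.0084 with a pseudocount of 5 and to -0.095 without D. yakuba, and over the 4 lines left out in turn it ran from -0.095 to 1.03. The interaction called 0 of the 25 genes in every alternative run. Between strains, the 0 genes became 2 with DESeq2, 1 with no filter and 0 to 3 when 1 tissue was left out, with 3 (CG1701, CG13560, CG43124) without the wing disc. Over all genes, 28 became 504 with DESeq2, 43 with no filter, 333 without the wing disc and 0 without the eye-antennal disc, without the brain or without the tissue block. Thresholds of 5 and 20 in place of 10 gave 36 and 16 genes. The limma fit on genes with recovered counts, added after seeing the data, gave 1, 4 and 7. Low counts limit the D. simulans values of CG18343 and all values of CG30343.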
